A study of Homo sapiens with 4 samples.

Results

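The genes described here encode the cytoskeletal motors and their chains: the kinesins, cytoplasmic dynein with dynactin, and the myosins. They were taken by gene symbol alone, with no use of their values, from the genes that the authors listed as enriched in an immunoprecipitate (IP) of the m6A reader YTHDF3. A total of 51 of the 3905 genes listed in either table carried such a symbol. Of these, 50 were protein-coding and 1, DYNC1I2P1, was a processed pseudogene. The study sequenced RNA recovered with a YTHDF3 antibody (RIP-seq) and input RNA from SiHa, a long-established line from a human cervical squamous cell carcinoma, and from SiHa cells labelled as a YTHDF3 knockout. The groups were SiHa IP, SiHa input, knockout IP and knockout input, with 1 library each and no further treatment named in the labels. How the knockout was made, and whether it was 1 clone or a pool, is not given in the sources used here. A precipitation with a non-specific antibody was not analysed here, so a gene listed in the knockout IP has no background of that kind beside it. Motor genes were listed in the knockout IP as well as in the SiHa IP. Whether a listed transcript was bound by YTHDF3 was not tested.

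Kinesins carry cargo along microtubules, most of them toward the plus end. A subset works mainly in mitosis, where it builds the spindle, aligns chromosomes and closes the midzone. Cytoplasmic dynein walks toward the minus end as a large complex of heavy, intermediate, light intermediate and light chains, and needs dynactin for long runs. Myosins pull on actin. The class II myosins form contractile bipolar filaments and the unconventional myosins carry or tether vesicles and membranes. YTHDF3 is a cytoplasmic protein that binds N6-methyladenosine (m6A) in mRNA.

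Each table gave a level per gene in the IP library and in the input library, a log2 fold enrichment and a p-value. The unit of the levels is not stated, sequencing depth is unknown, and it is not known whether levels were scaled to transcript length, so a level of one gene, or a median over a set, set beside that of others can differ with transcript length. The log2 fold enrichment in the authors' deposited tables was log2 of the ratio of IP to input level with a fixed number added, 1.01 for SiHa and 0.81 for the knockout. Below, an IP-to-input ratio is the ratio of the levels without that added number. With 1 library per group no value has a replicate error, no test of a difference was possible, and the deposited p-values measure no spread between cultures. Levels of the 2 cell lines come from separately normalised tables, and this holds for every level set across them. The targeted gene, YTHDF3, stood at 25.8 in the SiHa IP and 11.7 in the SiHa input and was not listed in the knockout, which does not measure what was left of its transcript. Of 6 epithelial marker genes, CDH1, EPCAM, KRT8 and KRT18 were listed in SiHa, KRT5 and TP63 were not, and none of the 6 was listed in the knockout. Genes absent from a table either missed the thresholds or were not tested, so the labelled cell type could not be checked further.

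All 51 motor genes were listed in SiHa, where 27.0% of the 13529 genes tested were listed, and 41 of them were listed in the knockout, where 21.2% of 11034 were. How many motor genes were tested is not known, so these counts have no matching share. The human RefSeq annotation holds 126 protein-coding symbols of the same pattern, and 50 of them were listed. Of the 51 genes listed in SiHa, 80.4% were also listed in the knockout, against 57.1% of all SiHa-listed genes. The 10 others (19.6%, against 42.9%) were listed in SiHa alone. No motor gene was listed in the knockout alone, whereas 89.0% of all knockout-listed genes were listed in SiHa. The median IP level of the motor genes in SiHa was 36.3, against 21.2 for all listed genes. Among genes whose SiHa level reached the median of its table, 5 of 35 motor genes (14.3%) were missing from the knockout, against 26.0% of 1824 listed genes. With that filter in both tables the shares were 37.1% and 45.9%. The median log2 fold enrichment, from the authors' deposited tables, was 2.37 in SiHa against 2.04 for all listed genes, and 3.08 in the knockout against 2.43. In SiHa 38 of 51 motor genes (74.5%) were enriched at least 4-fold in the authors' deposited table, against 52.5% of all listed genes. In the knockout 35 of 41 (85.4%) were, against 66.6%.

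**Figure D1:**
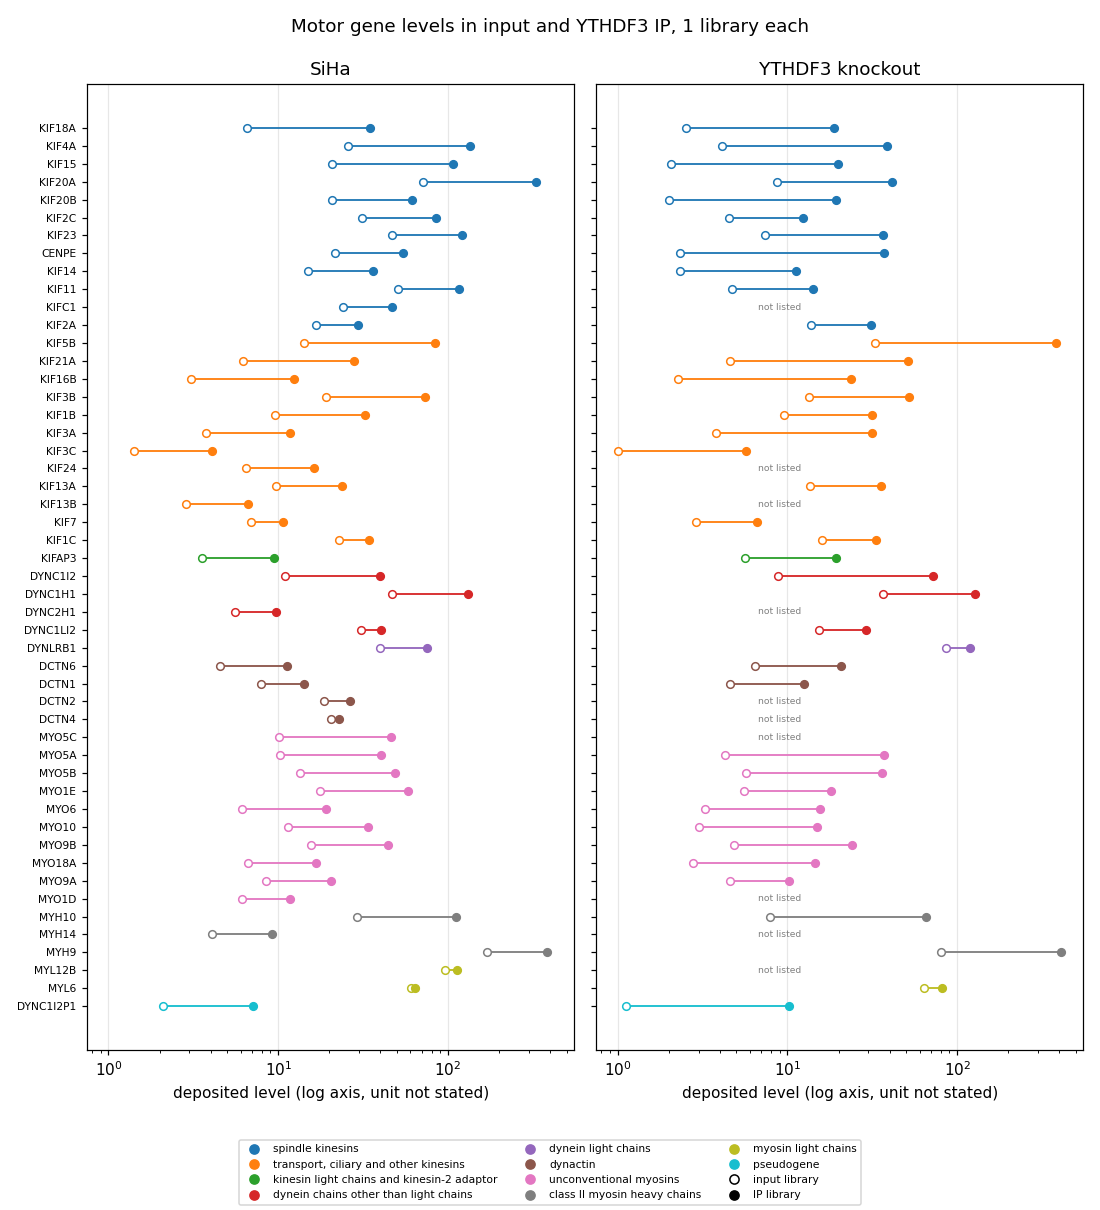
Levels of 50 of the 51 motor genes in the input library (open circle) and the IP library (filled circle) of SiHa and of the YTHDF3 knockout, on a log axis in the unit of the deposited tables, 1 library each, coloured by motor class. Each IP circle lies to the right of its input circle, which the thresholds for listing all but fix in advance. In the knockout panel 10 genes are marked as not listed.

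The mitotic, or spindle, kinesins were the class with the most complete listing. Of 16 genes in this class 12 were listed in SiHa and 11 in the knockout, and KIF2B, KIF4B, KIF18B and KIF22 were in neither table. Of all genes tested, 27.0% were listed in SiHa and 21.2% in the knockout. How many genes of each class were tested is not known. In SiHa, IP levels of the class ran from 29.6 to 328 with a median of 72.9, input levels from 6.52 to 71.0 with a median of 22.9, and IP-to-input ratios from 1.77 to 5.33. In the knockout, IP levels ran from 11.3 to 41.3 with a median of 19.9, input levels from 2.02 to 13.7 with a median of 4.11, and ratios from 2.27 to 15.9. The class was therefore at lower levels in both knockout libraries while its median ratio was higher, at 4.98 against 2.65 in SiHa. The median ratio over all listed genes was also higher in the knockout, at 3.06 against 2.05. By fold in the authors' deposited tables, 2 of the 11 shared genes of the class were lower in the knockout, against 831 of all 2083 shared genes.

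The promoters of these genes are shown because most of their transcripts were low together in the knockout input, as described after them. A link between promoter elements and these levels was not tested. The CHR element, with the letters TTTGAA, and the CCAAT box, with the letters CCAAT, are known elements of genes that are transcribed late in the cell cycle, the former bound by MuvB complexes and the latter by NF-Y. The windows are those of RefSeq on GRCh38.p14, from 250 bases before to 50 bases after an annotated start, and both strands were searched. The 150 bases before the start are printed 5′ to 3′ on the gene's strand, and capitals mark the letters of either element or their reverse complement. KIF4A (chrX:70289954-70290103, plus strand), KIF11 (chr10:92592980-92593129, plus), KIF15 (chr3:44761644-44761793, plus), KIF18A (chr11:28108157-28108306, minus) and KIF23 (chr15:69414199-69414348, plus) hold the CHR letters there. KIF20A (chr5:138178962-138179111, plus) holds only CCAAT letters, and KIF2A (chr5:62306056-62306205, plus) holds neither. KIF5B (chr10:32056426-32056575, minus), a transport kinesin, is shown for comparison.
KIF4A: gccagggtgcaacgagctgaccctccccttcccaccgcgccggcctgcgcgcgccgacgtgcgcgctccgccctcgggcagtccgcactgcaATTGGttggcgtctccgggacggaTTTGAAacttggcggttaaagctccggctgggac
KIF11: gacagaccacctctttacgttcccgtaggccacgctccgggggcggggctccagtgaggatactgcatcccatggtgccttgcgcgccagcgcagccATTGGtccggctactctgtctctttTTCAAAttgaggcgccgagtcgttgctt
KIF15: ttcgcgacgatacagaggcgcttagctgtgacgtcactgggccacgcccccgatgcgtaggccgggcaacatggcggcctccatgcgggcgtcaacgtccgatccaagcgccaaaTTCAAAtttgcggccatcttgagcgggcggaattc
KIF18A: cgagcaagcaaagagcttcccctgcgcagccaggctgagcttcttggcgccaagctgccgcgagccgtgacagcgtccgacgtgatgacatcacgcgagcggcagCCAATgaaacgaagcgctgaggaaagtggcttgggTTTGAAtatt
KIF23: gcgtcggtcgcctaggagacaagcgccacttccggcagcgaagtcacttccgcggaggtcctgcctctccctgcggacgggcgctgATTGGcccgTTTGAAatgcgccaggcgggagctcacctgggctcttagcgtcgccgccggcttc
KIF20A: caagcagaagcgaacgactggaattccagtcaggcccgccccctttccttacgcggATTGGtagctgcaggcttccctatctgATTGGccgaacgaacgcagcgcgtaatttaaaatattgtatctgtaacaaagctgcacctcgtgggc
KIF2A: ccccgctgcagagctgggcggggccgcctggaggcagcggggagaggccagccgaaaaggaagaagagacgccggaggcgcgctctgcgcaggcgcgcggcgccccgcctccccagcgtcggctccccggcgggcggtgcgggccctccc
KIF5B: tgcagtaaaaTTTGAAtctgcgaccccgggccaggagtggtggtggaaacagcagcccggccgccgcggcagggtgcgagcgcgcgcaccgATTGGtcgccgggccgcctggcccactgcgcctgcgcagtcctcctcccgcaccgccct

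Of the 12 listed spindle kinesins, 8 had CHR letters in the whole window, between 55 bases before and 31 bases after the start, and 8 had CCAAT letters. Both were present in 7. Among all 35116 RefSeq promoter windows, 15.2% held the CHR letters, 34.6% the CCAAT letters and 5.90% both. Of the 35 other motor genes with a window, 1 held the CHR letters and 16 the CCAAT letters. That 1 gene was KIF5B, whose match began 140 bases before the start. KIF20A had no CHR match in its window, and KIF2C, CENPE and KIF2A had neither element. The input of KIF2C was 6.85-fold and that of CENPE 9.23-fold lower in the knockout, and that of KIF2A 1.22-fold. In none of the motor gene windows did a CHR match overlap with a CCAAT match. These are matches of letters and not measured sites, and a window without them says nothing of the factors. Whether a match goes with a lower knockout input was not tested.

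**Figure D2:**
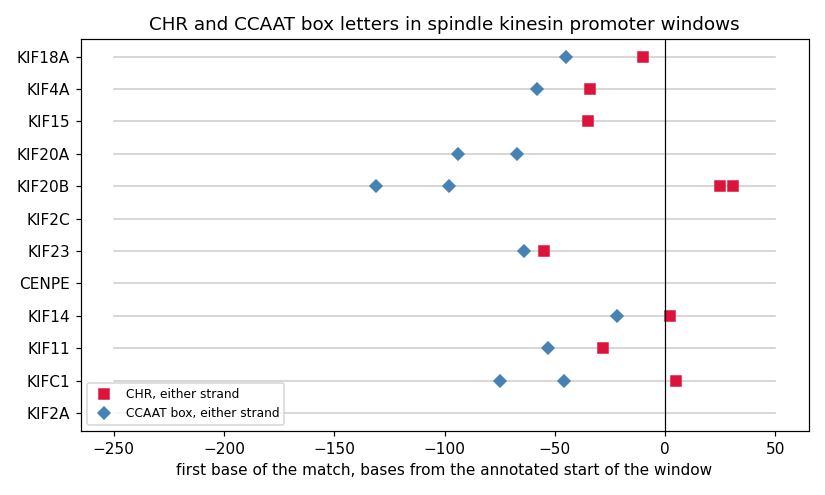
Positions of CHR letters (squares) and CCAAT letters (diamonds) on either strand in the promoter windows of the 12 listed spindle kinesins, in bases from the annotated start, with 1 line per gene. The CHR matches of 8 genes lie between -55 and 31 bases, and KIF2C, CENPE and KIF2A have no mark.

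Among the motor classes, the spindle kinesins had the lowest knockout input levels relative to SiHa. KIF20A (chromosome 5, 138179112 to 138187723), a midzone kinesin needed for cytokinesis, stood at 71.0 in the SiHa input against 8.66 in the knockout input, and at 328 against 41.3 in the IP libraries. Both libraries were thus lower in the knockout by about the same factor. KIF11 (chromosome 10, 92593130 to 92655395), the motor that pushes spindle poles apart, stood at 50.7 against 4.73 in the inputs and at 116 against 14.1 in the IPs. KIF23 (chromosome 15, 69414349 to 69448427), the kinesin of the centralspindlin complex, had input levels of 46.7 and 7.38 and IP levels of 120 and 36.8. KIF2C (chromosome 1, 44739837 to 44767767), a microtubule depolymerase at centromeres, had input levels of 31.1 and 4.54 and IP levels of 84.5 and 12.4. In each of these genes SiHa was high and the knockout low in both kinds of library.

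KIF4A (chromosome X, 70290104 to 70420886), a chromosome-bound kinesin, stood at 25.8 in the SiHa input against 4.11 in the knockout input, and at 135 against 38.4 in the IPs. KIF15 (chromosome 3, 44761794 to 44868687), which supports the bipolar spindle beside KIF11, had input levels of 20.7 and 2.07 and IP levels of 107 and 19.9. KIF20B (chromosome 10, 89701590 to 89774934), a kinesin of late cytokinesis, had input levels of 20.6 and 2.02 and IP levels of 61.3 and 19.4. For these genes the input was lower by a larger factor than the IP. KIF14, another cytokinesis kinesin, had input levels of 15.0 and 2.34 and IP levels of 36.3 and 11.3. KIF18A (chromosome 11, 28020619 to 28108156), which damps chromosome movements at the metaphase plate, had input levels of 6.52 and 2.54 and IP levels of 34.7 and 18.8. KIF18A thus showed the same direction with a smaller difference.

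CENPE (chromosome 4, 103105811 to 103198343), the kinetochore kinesin that brings chromosomes to the plate, stood apart within the class. It stood at 21.6 in the SiHa input against 2.34 in the knockout input, but at 54.1 against 37.2 in the IPs. The input was therefore far lower in the knockout and the IP only modestly so, and its IP-to-input ratio was 2.50 in SiHa against 15.9 in the knockout. KIF2A (chromosome 5, 62306206 to 62391025), a depolymerase with roles at spindle poles and in interphase, was the exception in the other sense, with input levels of 16.7 and 13.7 and IP levels of 29.6 and 31.2. KIFC1, a minus-end directed kinesin that focuses spindle poles, stood at 46.6 in the SiHa IP and 24.2 in the SiHa input and was not listed in the knockout.

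Across the 11 shared spindle kinesins the median log2 ratio of knockout to SiHa was -2.78 for the input level, against -0.52 over all 2083 shared genes, and -1.71 for the IP level, against -0.12. The input level was lower in the knockout in 11 of 11 and the IP level in 10 of 11, KIF2A being the exception. Of all shared genes 75.3% had a lower input and 55.4% a lower IP. Over all motor genes, 34 of the 41 shared ones had a lower input in the knockout (82.9%, against 75.3% of all shared genes). The input of 9 of the 41 shared motor genes was at least 4-fold lower in the knockout (22.0%, against 5.47% of all shared genes), and all 9 were spindle kinesins. The IP was at least 4-fold lower for 4 (9.76%, against 3.17%), which were KIF11, KIF20A, KIF2C and KIF15. Among the 30 other shared motor genes the input log2 ratios ran from -1.91 to 1.21 with a median of -0.52. The input was at least 2-fold higher in the knockout for KIF5B and DYNLRB1 (4.88%, against 2.64%). In bulk RNA, fewer cells in mitosis and less of these transcripts per cell cannot be told apart. A gene at a very low level could not have passed the thresholds of the knockout table, so these medians cover only genes that remained listed.

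The spindle and midzone proteins that work beside these kinesins, a list of 26 genes, had 21 members listed in SiHa and 17 in the knockout. Of all genes tested, 27.0% were listed in SiHa and 21.2% in the knockout. For this list and the partner lists below, how many members were tested is not known, so the counts have no matching share. All 17 shared members had lower levels in the knockout in both libraries, against 75.3% of all shared genes for the input and 55.4% for the IP, with a median log2 ratio of -2.61 for the input and -1.74 for the IP. TPX2, an activator of Aurora A on the spindle, had input levels of 120 in SiHa and 23.3 in the knockout and IP levels of 781 and 323. PRC1, which bundles midzone microtubules and recruits KIF4A, had input levels of 69.4 and 8.32 and IP levels of 377 and 83.6. HMMR, which binds spindle microtubules, had input levels of 15.5 and 5.001 and IP levels of 114 and 101. For HMMR, as for CENPE, the IP levels of the cell lines lay nearer to each other than the input levels.

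**Figure D3:**
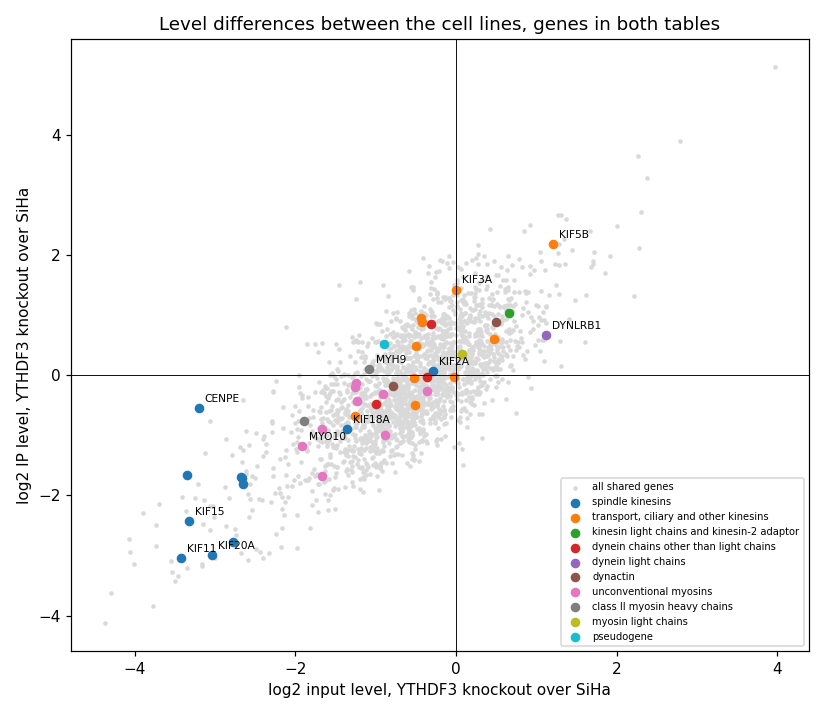
log2 of knockout over SiHa for the input level (horizontal) and the IP level (vertical) of the 41 shared motor genes, coloured by class, over all 2083 shared genes in grey, 1 library per group and separately normalised tables. The spindle kinesins, except KIF18A and KIF2A, lie at input values from -3.42 to -2.65, and KIF5B lies at 1.21 and 2.19.

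Among the kinesins of transport and cilia, KIF5B led in both tables. KIF5B (chromosome 10, 32009015 to 32056425), the ubiquitous heavy chain of conventional kinesin, stood at 14.2 in the SiHa input and 84.0 in the SiHa IP, and at 32.9 and 382 in the knockout libraries. In contrast to the spindle kinesins, its levels were higher in both knockout libraries, and its IP-to-input ratio was 5.90 in SiHa against 11.6 in the knockout. It ranked 39 of 3648 in SiHa and 90 of 2340 in the knockout by fold in the authors' deposited tables. Its light chains KLC1, KLC2, KLC3 and KLC4, which link it to cargo, were in neither table, nor were the neuronal heavy chains KIF5A and KIF5C.

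Of the kinesin-2 motors, which drive transport into cilia, the heterotrimeric form had its subunits listed, and KIF17, which works as a homodimer, was in neither table. KIF3A (chromosome 5, 132688812 to 132737546) had input levels of 3.76 in SiHa and 3.77 in the knockout, and IP levels of 11.7 and 31.4. Its input levels were thus nearly equal and its IP level was higher in the knockout. KIF3B (chromosome 20, 32277651 to 32335011), its partner in the heterodimer, had input levels of 19.1 and 13.4 and IP levels of 73.1 and 51.8. The ratio of KIF3B was therefore about the same in both, 3.83 and 3.88, while that of KIF3A was 3.10 and 8.31. KIF3C, the alternative partner, stood at 4.09 in the SiHa IP and 1.42 in the SiHa input, and at 5.73 and 1.01 in the knockout. Its adjusted p-value in the authors' deposited tables was 0.157 and 0.0543. KIFAP3, the adaptor subunit, had input levels of 3.57 and 5.63 and IP levels of 9.43 and 19.2.

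KIF21A (chromosome 12, 39293228 to 39443120), which restrains microtubule growth at the cell cortex, had input levels of 6.17 in SiHa and 4.61 in the knockout and IP levels of 27.9 and 51.3. KIF16B (chromosome 20, 16272104 to 16573448), which moves early endosomes, had input levels of 3.07 and 2.27 and IP levels of 12.3 and 23.8. In both genes the input was slightly lower and the IP higher in the knockout. KIF1B, a carrier of mitochondria and vesicles, differed little, with input levels of 9.62 and 9.49 and IP levels of 32.3 and 31.5. KIF13A, which transports recycling endosomes, had higher levels in both knockout libraries, with input levels of 9.71 and 13.5 and IP levels of 23.6 and 35.7. KIF1C and KIF7 were at the low end of the class, with ratios of 1.51 and 1.55 in SiHa and 2.09 and 2.31 in the knockout. KIF24, a kinesin of the mother centriole, and KIF13B were listed in SiHa only, at IP levels of 16.2 and 6.60 and input levels of 6.46 and 2.88. For KIF13B and KIF7 the adjusted p-values in the authors' deposited table for SiHa were 0.0782 and 0.0632. That of KIF7 in the knockout was 0.155.

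Of 15 cargo adaptors and partners of these kinesins, 9 were listed in SiHa and 8 in the knockout, against 27.0% and 21.2% of all genes tested. KTN1, kinectin, an endoplasmic reticulum protein that binds conventional kinesin, had input levels of 49.9 in SiHa and 66.8 in the knockout and IP levels of 156 and 839. SPAG9, a JIP family adaptor of kinesin-1 and dynein, had input levels of 9.15 in SiHa and 14.3 in the knockout and IP levels of 27.5 and 75.8. Like KIF5B, both genes had higher levels in both knockout libraries. SYNE2, a nuclear envelope protein that anchors kinesin-1, was lower in both, with input levels of 39.0 and 7.42 and IP levels of 93.4 and 46.1. KIDINS220, a membrane protein carried by kinesin-1, was also lower, with input levels of 10.6 and 7.56 and IP levels of 24.5 and 15.2. Of the 7 shared genes of this list, 5 had a lower input and 4 a lower IP in the knockout. These counts were near the shares over all shared genes, 75.3% for the input and 55.4% for the IP. RUFY3, listed in the knockout only, stood at 5.83 in the IP and 1.96 in the input, with an adjusted p-value of 0.133 in the authors' deposited table. Of 15 tubulins, TUBB6, TUBG1 and TUBG2 were listed in SiHa and TUBB6 in the knockout, against 27.0% and 21.2% of all genes tested.

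Dynein and dynactin were listed in part. DYNC1H1 (chromosome 14, 101964573 to 102056443), the motor-bearing heavy chain, had input levels of 46.8 in SiHa and 36.5 in the knockout and IP levels of 131 and 128. Its IP levels were thus nearly equal and its input was slightly lower in the knockout. DYNC1I2 (chromosome 2, 171687469 to 171750158), the intermediate chain that binds dynactin, had input levels of 10.96 and 8.81 and IP levels of 39.7 and 71.8. Its IP was higher in the knockout and its ratio was 3.62 and 8.15. The processed copy DYNC1I2P1 (chromosome 10, 50264888 to 50267112) had ratios of 3.41 and 9.14, at IP levels of 7.12 and 10.3. Reads may be split between a gene and such a copy, so the values of both are uncertain.

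DYNC1LI2, a light intermediate chain, had ratios of 1.31 in SiHa and 1.90 in the knockout. DYNC2H1, the heavy chain of the ciliary dynein-2, was listed in SiHa only, at 9.70 in the IP and 5.59 in the input. Its adjusted p-value in the authors' deposited table was 0.0563. A second dynein-2 subunit, now named DYNC2I1, appears in the tables under the older symbol WDR60, which the choice by symbol does not take. That gene, WDR60, had input levels of 6.47 and 2.81 and IP levels of 20.997 and 33.3. The light chain DYNLRB1 (chromosome 20, 34515602 to 34540958) had input levels of 39.7 and 86.3 and IP levels of 74.9 and 120, higher in the knockout in both libraries, and its ratio was 1.89 and 1.39. It was the only 1 of 10 dynein light chain genes in either table. Of all genes tested, 27.0% were listed in SiHa and 21.2% in the knockout.

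In dynactin, the sidearm gene DCTN1 had ratios of 1.81 in SiHa against 2.75 in the knockout, and the pointed-end gene DCTN6 had 2.47 against 3.24. DCTN2 and DCTN4 were listed in SiHa only, with ratios of 1.41 and 1.12. Of 19 dynein adaptors and regulators, 13 were listed in SiHa and 8 in the knockout, against 27.0% and 21.2% of all genes tested. All 8 were among the 13, and 57.1% of all SiHa-listed genes were also listed in the knockout. SPDL1, which recruits dynein to kinetochores, had input levels of 12.9 and 4.48 and IP levels of 62.5 and 56.6. CLIP1, a plus-end tracking protein that binds dynactin, had input levels of 47.2 and 55.8 and IP levels of 205 and 529. Between the cell lines SPDL1 differed mainly in the input and CLIP1 mainly in the IP.

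Unconventional myosins formed the largest myosin class, with 11 of 25 genes listed in SiHa and 9 in the knockout. Of all genes tested, 27.0% were listed in SiHa and 21.2% in the knockout. All 9 shared genes had lower input and lower IP levels in the knockout, against 75.3% and 55.4% of all shared genes. Their median log2 ratios were -1.25 for the input and -0.43 for the IP, against -0.52 and -0.12 over all shared genes. The class V myosins, carriers of recycling endosomes, melanosomes and secretory vesicles, had the highest SiHa ratios of the class. MYO5C (chromosome 15, 52192322 to 52295804), expressed mainly in glandular epithelia, stood at 46.1 in the SiHa IP and 10.1 in the SiHa input and was not listed in the knockout. MYO5A (chromosome 15, 52307283 to 52529050), its neighbour on the chromosome, had input levels of 10.2 and 4.29 and IP levels of 40.5 and 37.2. MYO5B (chromosome 18, 49822789 to 50195147) had input levels of 13.4 and 5.72 and IP levels of 48.5 and 36.0. Of the 10 motor genes missing from the knockout, MYO5C was alone in having a SiHa ratio above 3, at 4.55, and the remaining 9 ran from 1.12 to 2.51.

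MYO1E, a membrane-tethering class I myosin, had input levels of 17.6 and 5.56 and IP levels of 57.9 and 18.1, and nearly equal ratios of 3.29 and 3.25. MYO10, the filopodial myosin, had input levels of 11.4 and 3.03 and IP levels of 33.9 and 15.0. MYO9A and MYO9B, the class IX myosins, had ratios of 2.40 and 2.85 in SiHa and 2.21 and 4.90 in the knockout. MYO6, the myosin that walks toward the minus end of actin, had ratios of 3.16 and 4.77. MYO18A had ratios of 2.50 and 5.21. MYO1D was listed in SiHa only, with a ratio of 1.92. Of the shared genes named here, MYO1E and MYO9A had a lower ratio in the knockout and the others a higher one.

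The class II heavy chains of non-muscle cells were all listed in SiHa. MYH9 (chromosome 22, 36281280 to 36387967), non-muscle myosin IIA, had input levels of 170 in SiHa and 80.4 in the knockout and IP levels of 383 and 410. MYH10 (chromosome 17, 8474212 to 8630725), non-muscle myosin IIB, had input levels of 29.1 and 7.86 and IP levels of 111 and 65.9. Both had lower inputs in the knockout, and their ratios went from 2.26 to 5.11 and from 3.83 to 8.39. MYH14, non-muscle myosin IIC, was listed in SiHa only, at 9.20 in the IP and 4.05 in the input. The muscle heavy chains were in neither table.

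The myosin light chains had the lowest median ratio of the motor classes in SiHa, at 1.11. MYL6, the essential light chain, had input levels of 60.7 and 64.0 and IP levels of 63.8 and 81.3, and ratios of 1.05 and 1.27. MYL12B, a regulatory light chain, was listed in SiHa only, at 113 in the IP and 96.3 in the input, a ratio of 1.18. Its paralog MYL12A is nearly identical in sequence and was in neither table, and how reads were shared between them is not given. In SiHa the IP and input levels of both genes were thus almost equal. Without the added number their log2 ratios, 0.07 and 0.24, were below the threshold of 1. A value below 1 was common, since the median log2 ratio without that number was 1.04 over all genes listed in SiHa. The heavy chain genes that these light chains serve had ratios from 2.26 to 3.83.

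Of 21 actin genes and regulators of actomyosin, 18 were listed in SiHa and 13 in the knockout, against 27.0% and 21.2% of all genes tested. PPP1R12A, the targeting subunit of myosin phosphatase, had input levels of 20.6 and 12.5 and IP levels of 126 and 179. CALD1, caldesmon, which restrains actomyosin, had input levels of 24.8 and 23.4 and IP levels of 98.9 and 241. Of the tropomyosins, which coat actin filaments, TPM3 had input levels of 33.8 and 30.6 and IP levels of 125 and 196. TPM2 had input levels of 21.9 and 39.2 and IP levels of 79.9 and 421. In these 4 genes, named for their SiHa fold, the IP was higher in the knockout, and the input was lower except in TPM2. Over the 13 shared genes of this list the IP was lower in the knockout in 7 and the input in 11. Of all shared genes 55.4% had a lower IP and 75.3% a lower input, so the IP count was near that share.

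**Figure D4:**
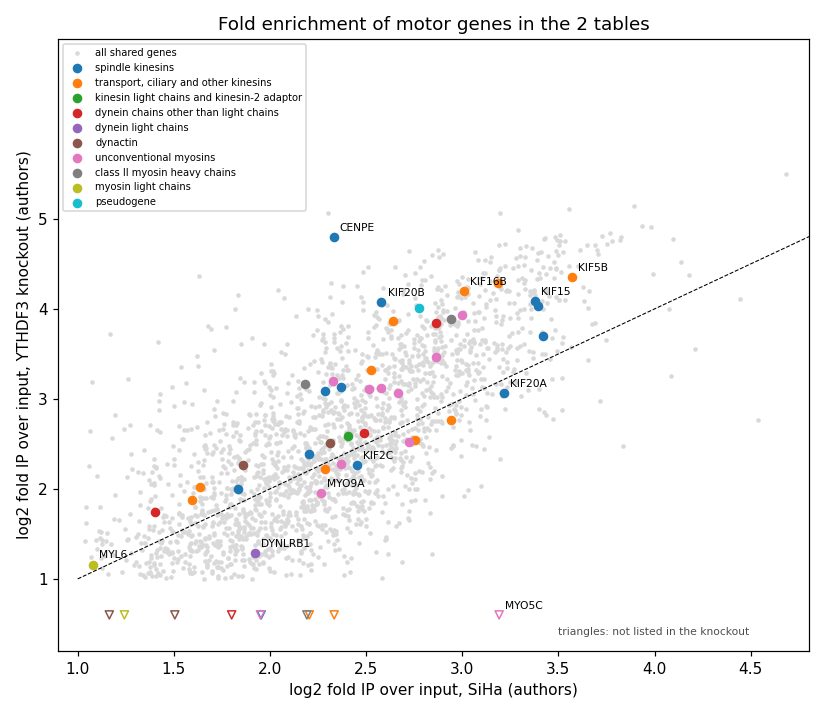
log2 fold enrichment of IP over input in SiHa (horizontal) and in the knockout (vertical), from the authors' deposited tables, for the 41 shared motor genes by class, over all shared genes in grey, with open triangles for the 10 genes not listed in the knockout and a dashed line of equal values. CENPE, at 2.33 and 4.802, lies farthest above the line and DYNLRB1, at 1.92 and 1.29, farthest below it among the motor genes.

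By fold, the spindle kinesins did not stand apart from the other motor genes as 1 set, among which the myosin light chains were lowest. The median log2 fold of the spindle kinesins, from the authors' deposited tables, was 2.41 in SiHa against 2.37 for all other motor genes, and 3.13 against 2.92 in the knockout. The difference in SiHa was 0.04, and it was -0.17 when only the other kinesins were taken for comparison and -0.10 among genes whose level reached the median of the table, so no order is given. Among classes with over 5 listed genes, the transport kinesins and the unconventional myosins both had SiHa medians of 2.58 in the authors' deposited tables.

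Between the cell lines, fold enrichment of 32 of the 41 shared motor genes (78.0%) from the authors' deposited tables was higher in the knockout, against 60.1% of all shared genes. The median log2 ratio of SiHa to knockout fold was -0.41, against -0.18 over all shared genes. It was -0.60 without the added numbers. It was -0.02 after each table was centred on the median of all its listed genes, shared or not. The size of the shift thus depended on the scaling, so the shift as a whole gets no direction. For 6 motor genes the knockout value was at least 2-fold higher (14.6%, against 13.6%). These were CENPE at a log2 ratio of -2.47 and KIF20B at -1.50, then DYNC1I2P1, KIF3A, KIF16B and KIF21A at -1.23 to -1.11 in the authors' deposited tables. For CENPE and KIF20B the knockout input was lower by more than the IP. Those inputs, 2.34 and 2.02, were low beside the median of 8.08 over all genes listed in the knockout. For KIF3A, KIF16B and KIF21A the IP was higher in the knockout at an input that differed by less. No motor gene was at least 2-fold higher in SiHa, and 1.68% of all shared genes were. The highest ratios belonged to DYNLRB1 at 0.64, MYO9A at 0.31, MYO1E at 0.21, KIF1B at 0.21 and KIF2C at 0.19 in the authors' deposited tables.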

How the data were processed

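Motor genes, their classes and 5 partner lists were chosen with earlier results of these data known, and so was the promoter motif search. Libraries of YTHDF3 antibody-enriched and input mRNA were prepared by a strand-keeping mRNA kit, per the labels' protocols. FastQC 0.11.7 and the builds GRCh38 and hg38 are named, per the submitters' processing notes. An aligner, a counter, its use of strand and the test used were not given in the sources used here, so reads of overlapping or antisense genes may not be told apart.

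Per the file headers, the authors deposited a log2 fold change, a p-value and an adjusted p-value per gene, and a level in 2 libraries that is treated as a signal of unknown unit. The column without the word input was taken as the IP. The lane in its name is not the one in the sample title, or the title has no lane. All rows had a log2 fold of at least 1 and a p-value of at most 0.05. How many genes were tested was worked out from p-value and adjusted p-value, as the number that makes every rank whole (mean deviation 0.00047 in SiHa and 0.00034 in the knockout, against 0.197 and 0.171 at the next best numbers), and the calculation was tested on simulated data. No test was run and no interval is given for any level.

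Genes were joined by Ensembl identifier. Locations of all 51 motor genes, by symbol or older symbol, and promoter windows of 47 came from RefSeq on GRCh38.p14. Every motor gene may be named, but 1 is not reported here by name and stands only in the counts and medians. Those described in full were the leading 5 by fold in each table, the 5 genes at either end of the SiHa to knockout fold ratio, the 5 largest SiHa folds missing from the knockout and the genes that mark the set. From each partner list up to 4 genes by SiHa fold may be named, and genes named beyond these were chosen after their values were seen. Python 3.11.15, pandas 2.3.3 and scipy 1.17.1 were used.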

Additional observations from a re-analysis of the deposited data

How the results depend on the processing

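Of 40 values recomputed under alternatives for 10 results, 38 kept their direction, and every count stayed within 1.5 times. Counts and percents cannot be negative, and medians of folds could hardly be, since listing required a log2 fold of at least 1. The class differences with the constant left out were unchanged by construction. The 38 therefore include values whose direction was fixed in advance. The median log2 ratio of SiHa to knockout fold, -0.41, shrank to -0.02 with each table centred on its median and was -0.60 without the constant. Leaving out the constant lowered the median log2 fold of the motor genes, by construction, from 2.37 to 1.36 in SiHa and from 3.08 to 2.27 in the knockout. The share of SiHa-listed motor genes missing from the knockout was 19.6%, and 37.1% among genes at or above each table's median level, since genes below that level in the knockout then count as missing. The difference between spindle kinesins and other motor genes in SiHa, 0.04 on the log2 scale, turned to -0.10 with that level filter and to -0.17 against the other kinesins only, and the cause was not tested. With an adjusted p-value of at most 0.05, 47 motor genes remained in SiHa and 38 in the knockout. No paired analysis was possible because each group holds 1 library. No replicate could be left out for the same reason, and depth is unknown.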

Other observations

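Genomic span, from the first to the last annotated base, was larger for the motor genes than for listed genes as a whole, with a median of 87538 against 51463 bases in SiHa. Across the 51 motor genes the log2 fold enrichment in the authors' deposited table for SiHa had a Spearman rho of 0.29 with the span, and 0.14 across 3605 listed genes. In the knockout rho was 0.25 across 41 motor genes and 0.06 across 2319 genes. With the input level, which is the denominator of the fold, rho was -0.18 in SiHa and -0.51 in the knockout among motor genes, and -0.25 and -0.32 among all listed genes. These are descriptions across genes that share their libraries, and genes are not independent replicates.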
